A study of Homo sapiens with 4 samples.

Results

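PTGS2 (cyclooxygenase-2) and 9 other genes that supply arachidonic acid, turn it into prostaglandins, break prostaglandins down or sense them were followed in U87MG cells, an established human glioblastoma line. The genes were PLA2G4A, PTGS1, PTGS2, PTGES, PTGES2, PTGES3, PTGIS, HPGD, PTGER2 and PTGER4. Every probe set whose platform annotation gave exactly 1 of these 10 symbols was taken, which gave 31 of the 49395 probe sets on the array, and these 10 genes are among 18132 measured. PTGS2 was chosen by its measured difference between the 2 groups, and the other genes because they belong to its pathway. Differences of the 10 genes are therefore a description of these arrays, and calls made on them support nothing further.

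The NeuroD2 group consisted of 2 cultures transfected with a vector for NeuroD2, a neuronal differentiation factor of the basic helix-loop-helix class, and the control group of 2 cultures that received the PCMV control vector. All 4 were U87MG cells held at 0.2% oxygen, with RNA taken 48 hours after transfection and measured on human PrimeView arrays, 1 array per culture. The share of cells that took up the vector was not analysed here, and all values come from a single cell line. The labels call the arrays biological replicates without saying how the cultures were separated, so errors measure the spread between these arrays, which may be technical.

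Prostaglandin synthesis starts when cytosolic phospholipase A2 releases arachidonic acid from membranes. The cyclooxygenases PTGS1, which most tissues make constantly, and PTGS2, which inflammatory signals induce, turn it into prostaglandin H2, and terminal synthases convert that into prostaglandin E2, prostacyclin and other products. Prostaglandin E2 acts through the EP receptors, of which EP2 and EP4 raise cyclic AMP, and the dehydrogenase HPGD inactivates it. In glioma, PTGS2 and prostaglandin E2 have long been studied for their link to tumour growth and local immune suppression.

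NEUROD2, whose vector defines the groups, read 7.37 and 7.82 on the NeuroD2 arrays and 5.46 and 5.35 on the control arrays at its brightest probe set (log2), while its other 2 probe sets differed by -0.07 and -0.21. Across all genes the NeuroD2 arrays correlated at 0.999 with each other, the control arrays at 0.998, and arrays of different groups at 0.995, with genes not being independent replicates. Control replicate 1 stood apart in its spiked-in RNAs. The poly-A spikes averaged 7.96 and 8.03 on the NeuroD2 arrays, against 6.95 on control replicate 1 and 7.98 on control replicate 2. The hybridisation spikes averaged 10.10 and 10.13 with the NeuroD2 vector and 9.56 and 9.90 with the control vector. Their part in the differences below was not tested. Differences without control replicate 1 are given for PTGS2, PTGS1, PLA2G4A, PTGER2 and PTGER4, and not for the genes of the lists. The glioblastoma line markers VIM and CD44 were bright on every array (14.1 to 14.2 and 12.7 to 12.9), and their list of 7 averaged 8.65 and 8.64 on the NeuroD2 arrays and 8.78 and 8.77 on the control arrays. In it 2 genes fell (FN1 and CHI3L1, by 0.63 and 0.51), 0 rose and 5 did not pass, with differences of 0.24 for GFAP and 0.18 for S100B. Only 4 of the 7 averaged at or above the median gene level of 6.56. CHI3L1, GFAP and S100B lay below it. GFAP read 6.32 and 6.35 on the NeuroD2 arrays and 6.11 and 6.07 on the control arrays, and S100B was the dimmest, at 4.83 on average. Of the 17268 genes of the whole array not called by limma, 3082 had an unadjusted p below 0.05, the background for the marker counts. Of the 10 macrophage and microglia markers, 0 were called by limma and 2 had an unadjusted p below 0.05. The list averaged 5.03 and 5.00 on the NeuroD2 arrays and 5.01 and 4.93 on the control arrays. Its lowest member, the leukocyte marker PTPRC, averaged 3.29. CD68 was its highest, at 10.21 and 10.13 with the NeuroD2 vector and 10.13 and 10.07 with the control vector. Of the 10, only CD68 averaged at or above the median gene level. The 6 endothelial markers averaged 4.97 and 4.86 with the NeuroD2 vector, against 4.84 and 4.74 with the control vector, with 0 called and 2 at an unadjusted p below 0.05 by limma. The 6 neuron markers averaged 6.55 and 6.49 with the NeuroD2 vector and 6.66 and 6.67 with the control vector, and 1 of them, SNAP25, fell by 0.59. Of the 5 not called, 2 had an unadjusted p below 0.05 by limma, SYT1 (-0.45) and STMN2 (0.21). In this list 3 differences were positive and 3 negative. In such bulk RNA, fewer cells of a kind and less RNA per cell cannot be told apart.

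PTGS2 stood far above the other 9 genes in the size of its difference. At its brightest probe set it read 11.74 and 11.86 on the NeuroD2 arrays, against 8.76 and 8.92 on the control arrays (log2). Both NeuroD2 arrays were high and both control arrays low, with a gap of 2.82 between the nearest arrays of the groups. The means were 11.80 ± 0.09 with the NeuroD2 vector and 8.84 ± 0.12 with the control vector (SD, n = 2 each), a difference of 2.96 with a standard error of 0.09. This is a 7.79-fold higher level with the NeuroD2 vector, with a 95% interval of 6.64 to 9.14. Among the 18132 genes it was the second largest positive difference.

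The other 2 PTGS2 probe sets gave the same picture at lower brightness. The second probe set read 10.58 and 10.62 with the NeuroD2 vector and 7.29 and 7.46 with the control vector, and the dimmest read 9.08 and 9.14 with the NeuroD2 vector, against 6.09 and 6.33 with the control vector. Their differences were 3.22 and 2.90 on the log2 scale, with standard errors of 0.09 and 0.10, so the groups were separate on all 3 probe sets. The second probe set exceeded the dimmest by 1.50 and 1.48 on the NeuroD2 arrays and by 1.20 and 1.13 on the control arrays, so the probe sets did not move by quite the same amount. What part of the transcript each of them reads was not analysed here.

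**Figure D1:**
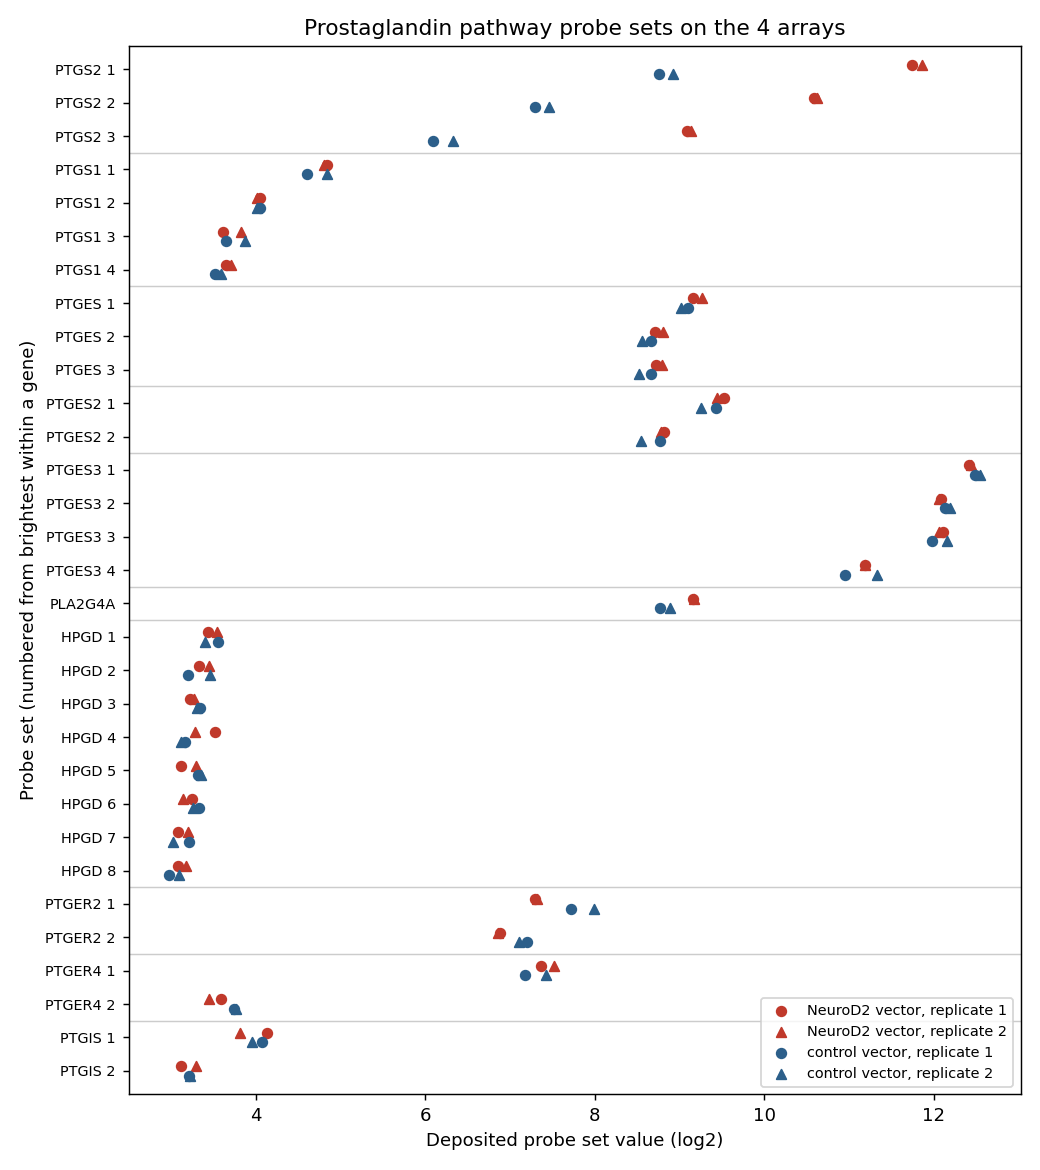
Deposited log2 values of the 31 probe sets of the 10 genes (rows, numbered from the brightest within a gene) on the 2 NeuroD2 arrays (red) and the 2 control arrays (blue). The 3 PTGS2 probe sets show the only wide separation, while HPGD, PTGS1 and PTGIS lie at or below 4.84 on all 4 arrays.

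The PTGS2 gene lies on the minus strand at chr1:186671791-186680423 (GRCh38.p14), and PLA2G4A, the phospholipase gene that feeds it, lies 148.5 kb away on the same chromosome. The 250 bases upstream of the annotated start of PTGS2 (chr1:186680424-186680673, minus strand), of PLA2G4A (chr1:186828699-186828948, plus strand) and of PTGER2 (chr14:52314062-52314311, plus strand) are shown because these 3 genes had the largest differences among the 10, and because NeuroD2 binds E-boxes as a basic helix-loop-helix factor. They come from RefSeq and read 5′ to 3′ in the direction of the gene. Capitals mark matches to an E-box (CANNTG), a C/EBP motif (TTNNGNAA), the core of a cyclic AMP response element (TGACG) and an NF-kB motif, each on both strands, and a TATA box (TATAAA) on the given strand.
PTGS2: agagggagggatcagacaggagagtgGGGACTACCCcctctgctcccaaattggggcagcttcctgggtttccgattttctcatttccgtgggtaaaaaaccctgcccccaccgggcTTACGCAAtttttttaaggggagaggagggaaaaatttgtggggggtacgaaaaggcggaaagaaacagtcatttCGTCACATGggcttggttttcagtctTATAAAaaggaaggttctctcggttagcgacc
PLA2G4A: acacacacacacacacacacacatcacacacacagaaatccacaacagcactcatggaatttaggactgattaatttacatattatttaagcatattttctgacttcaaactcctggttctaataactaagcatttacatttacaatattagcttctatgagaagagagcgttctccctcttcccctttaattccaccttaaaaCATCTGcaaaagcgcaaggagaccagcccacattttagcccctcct
PTGER2: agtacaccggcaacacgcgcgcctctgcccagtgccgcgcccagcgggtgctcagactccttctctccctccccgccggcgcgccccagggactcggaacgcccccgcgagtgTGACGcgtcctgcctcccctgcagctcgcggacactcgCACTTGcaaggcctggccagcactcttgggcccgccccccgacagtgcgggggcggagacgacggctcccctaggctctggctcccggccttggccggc

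In the PTGS2 window the NF-kB letters GGGACTACCC ended 215 bases upstream of the start, the C/EBP letters TTACGCAA 126 bases upstream, and the TATA box 27 bases upstream. The E-box letters CACATG, at 55 to 50 bases upstream, share 2 bases with the response element letters CGTCA at 58 to 54. The PTGS2 window held neither E-box form that NeuroD-type factors prefer (CAGATG and CAGCTG), while PLA2G4A held CATCTG, which is CAGATG on the other strand, at 46 to 41 bases upstream. A window of HPGD, whose difference was 0.01, held CAGCTG at 246 to 241 bases upstream. PTGER2 held CACTTG at 99 to 94 bases and TGACG at 137 to 133 bases upstream. Such letters are common. Of 35116 windows of this length upstream of RefSeq genes, 61.82% held an E-box, 12.15% CAGATG, 13.99% CAGCTG, 33.2% the C/EBP motif, 21.22% the response element core, 22.57% the NF-kB motif and 6.8% the TATA box. Of the 10 genes, 9 had a window, with 13 windows in all. An E-box lay in 7 of the 13 windows, which is the count to set beside the 61.82%. By gene, 6 of the 9 had an E-box in at least 1 window. A match describes the letters and is not a binding site.

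PLA2G4A, the cytosolic phospholipase that releases arachidonic acid, was measured on 1 probe set. It read 9.16 and 9.17 with the NeuroD2 vector, against 8.77 and 8.88 with the control vector (log2). The groups did not overlap, and the difference of 0.33 (95% interval 0.14 to 0.52) is 1.26-fold. It lay between 0.28 without control replicate 1 and 0.39 without control replicate 2.

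PTGS1, the constitutive cyclooxygenase, showed no such separation. Its brightest probe set read 4.84 and 4.80 on the NeuroD2 arrays, against 4.60 and 4.84 on the control arrays (log2), and the groups overlapped. The log2 difference of 0.10 had a 95% interval of -0.14 to 0.35, and it was -0.02 without control replicate 1. Over its 4 probe sets differences ran from -0.05 to 0.13. The standard error was 0.10 at this dim probe set and 0.09 at the brightest of PTGS2. A difference in PTGS1 anywhere within its 95% interval remains possible. Whether values this dim understate a change was not tested.

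**Figure D2:**
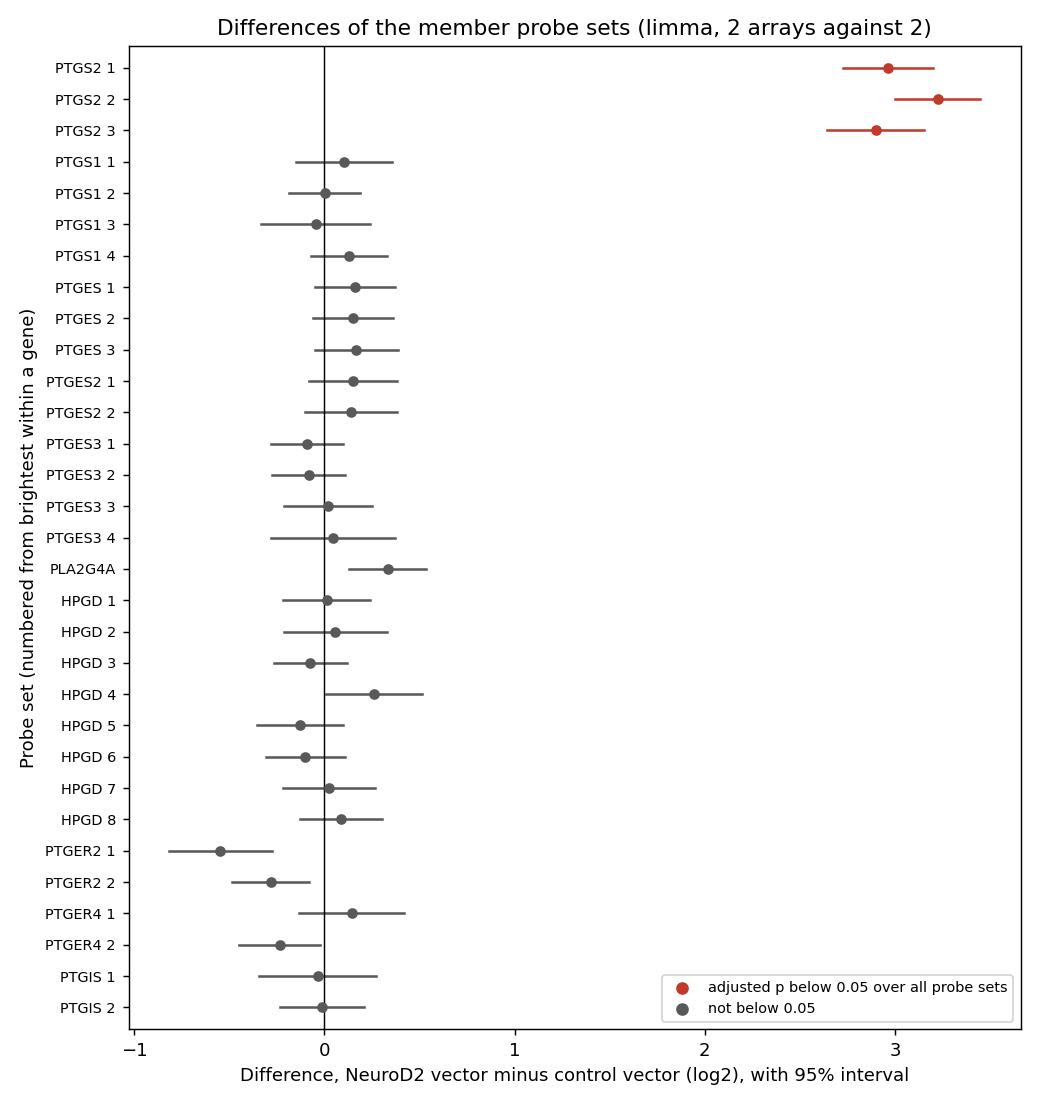
Difference between the NeuroD2 vector and the control vector (log2 scale, horizontal axis) with its 95% interval from limma for the 31 probe sets, in red where the adjusted p over all probe sets was below 0.05. Only the 3 PTGS2 probe sets are red, at 2.90 to 3.22, and the other 28 lie between -0.55 and 0.33.

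The prostaglandin E synthases differed little. PTGES, the inducible microsomal enzyme that often acts with PTGS2, read 9.16 and 9.27 at its brightest probe set with the NeuroD2 vector, against 9.10 and 9.01 with the control vector (log2). Its groups did not overlap, by a gap of 0.07, and its 3 probe sets differed by 0.15 to 0.17. The 95% interval at the brightest, -0.04 to 0.36, ends at a 1.28-fold higher level.

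PTGES2, a second membrane-associated synthase, read 9.53 and 9.44 with the NeuroD2 vector, against 9.42 and 9.25 with the control vector, and its 2 probe sets differed by 0.15 and 0.14. PTGES3, the cytosolic synthase also known as the Hsp90 co-chaperone p23, was bright on every array. It read 12.42 and 12.44 with the NeuroD2 vector and 12.49 and 12.54 with the control vector. Its 4 probe sets, all of kinds that can match more than 1 gene, differed by -0.09 to 0.05. The groups did not overlap on either PTGES2 probe set or on 2 of the 4 PTGES3 probe sets, yet no probe set of these genes was called.

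PTGIS, which makes prostacyclin, was dim. It read 4.14 and 3.81 with the NeuroD2 vector and 4.07 and 3.95 with the control vector, and the control arrays lay inside the range of the NeuroD2 arrays. HPGD, the dehydrogenase that inactivates prostaglandin E2, was the dimmest of the 10. At its brightest probe set it read 3.44 and 3.55 with the NeuroD2 vector and 3.56 and 3.40 with the control vector, and over its 8 probe sets every value lay between 2.98 and 3.56. Differences ran from -0.13 to 0.26, with 5 positive and 3 negative. No detection calls were used here, so neither gene was called absent.

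The EP receptor genes were read on 2 probe sets each. PTGER2, which encodes EP2, read 7.30 and 7.32 on the NeuroD2 arrays and 7.72 and 7.99 on the control arrays (log2). Both NeuroD2 arrays were low and the groups did not overlap. The difference was -0.55 (95% interval -0.81 to -0.28), so PTGER2 fell to 0.684 times its control-vector level. Its second probe set read 6.88 and 6.85 with the NeuroD2 vector, against 7.20 and 7.10 with the control vector, a smaller difference of -0.28. The difference at the brightest probe set ranged from -0.68 without control replicate 1 to -0.41 without control replicate 2.

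PTGER4, which encodes EP4, read 7.36 and 7.52 at its brightest probe set with the NeuroD2 vector and 7.18 and 7.42 with the control vector, and the groups overlapped. The difference was 0.14 (95% interval -0.13 to 0.41), and 0.02 without control replicate 1. Its other probe set was dim and pointed the other way, with 3.59 and 3.45 on the NeuroD2 arrays and 3.75 and 3.77 on the control arrays, a difference of -0.24. Averaging both probe sets gave -0.05, so the direction for PTGER4 depends on the probe set.

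By limma over all 18132 genes, 1 of the 10 genes was called higher (PTGS2) and 1 lower (PTGER2) at an adjusted p below 0.05, while 4.77% of all genes were called, 1.81% higher and 2.96% lower (328 and 536 genes, and 437 and 452 after centring on array medians). PTGER2 lay just inside that threshold (adjusted p = 0.0494) and PLA2G4A just outside it (adjusted p = 0.0744). With every probe set tested on its own, 3 of 31 were called, all PTGS2 and all higher. Of all 44988 probe sets with 1 symbol 3.03% were called, 1.32% higher and 1.70% lower, and neither PTGER2 probe set was called. The groups did not overlap in 6 of the 10 genes, against 50.8% of all genes, and in 19 of the 31 probe sets, against 49.4%. The median difference of the 10 genes was 0.12, and 7 were positive and 3 negative. The median absolute difference was 0.15, against 0.11 over all genes.

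The PTGS2 difference lay between 2.88 (without control replicate 1) and 3.05 (without control replicate 2) under the 11 other settings. Of these, the replicate block, the intensity trend, the robust prior and the filter on dim genes cannot move a gene's difference. They bear only on whether PTGS2 was called. Without control replicate 1 or without control replicate 2 it was not called, as was no other gene of the array. PTGER2 was called in 3 of 11 settings, those with an intensity trend, without dim genes and with probe sets averaged, and PLA2G4A was called higher in the same 3.

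**Figure D3:**
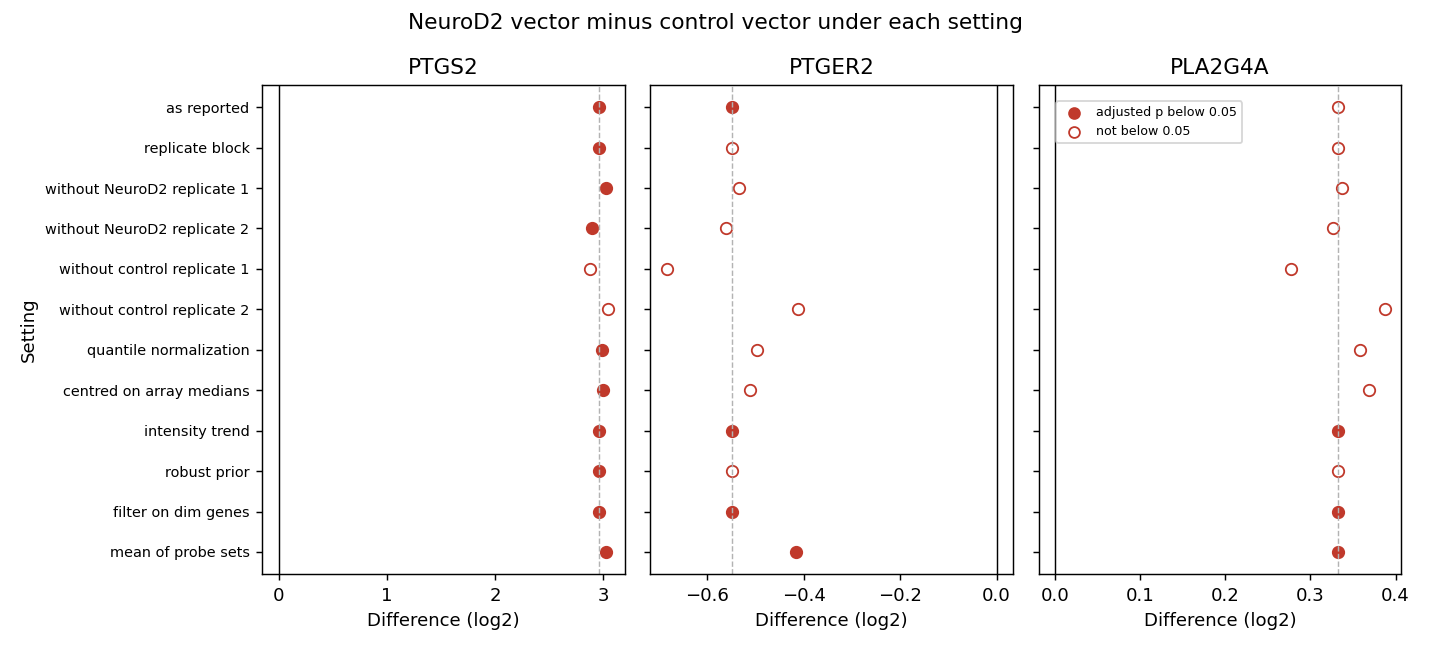
Difference between the NeuroD2 vector and the control vector (log2, horizontal axes, scales differ) for PTGS2, PTGER2 and PLA2G4A as reported and under 11 other settings (rows), filled where the adjusted p was below 0.05. PTGS2 lies between 2.88 and 3.05, PTGER2 between -0.68 and -0.41 and PLA2G4A between 0.28 and 0.39. The replicate block, the intensity trend, the robust prior and the filter on dim genes cannot move a difference.

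The 5 genes whose values over the 4 arrays lay nearest to those of PTGS2, each taken relative to its own control-vector mean, were the collagenase gene MMP1, the growth factor gene BMP2, the stromelysin gene MMP3, the neutrophil chemokine gene CXCL5 and the cytokine gene IL1B. Their Euclidean distances from PTGS2 were 0.768, 0.817, 0.828, 0.840 and 0.877 log2 units. With 4 arrays in 2 groups, nearness mostly reflects a rise of similar size, here 2.36 to 2.43 on the log2 scale.

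Other genes of the eicosanoid pathway were read from 6 lists, and signalling downstream of prostaglandin E2 and regulators of PTGS2 from 5 more. Together the 11 lists held 141 measured genes, each counted here a single time. Of these, 7 rose and 10 fell by limma over all genes and 124 did not pass, while 1.81% of all genes rose and 2.96% fell, which is the background for each list count that follows. In the 6 eicosanoid lists 0 genes rose and 6 fell. Of the 124 genes, 22 had an unadjusted p below 0.05 by limma. So had 3082 of the 17268 genes of the whole array that did not pass, which is the background for each such count that follows. The median difference of all 141 genes was 0.01, against a median of all genes at 0.00 to 2 decimals. Of 22 genes of arachidonate release and recycling, 2 fell and 20 did not pass (median -0.02). LPCAT3, which puts arachidonate and other polyunsaturated chains back into phospholipids, read 8.21 and 8.24 with the NeuroD2 vector and 8.95 and 8.98 with the control vector, and fell by 0.74 (adjusted p = 0.0102 by limma). Averaged over its 5 probe sets it fell by 0.46. PLA2G15, a lysosomal phospholipase, fell by 0.44, reading 7.50 and 7.48 with the NeuroD2 vector and 7.91 and 7.95 with the control vector (adjusted p = 0.0347 by limma).

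Among other prostanoid synthases, 1 of 6 fell and 5 did not pass (median -0.04). This was AKR1C3, which reduces prostaglandin D2 to an F-type prostaglandin, at 8.53 and 8.69 with the NeuroD2 vector and 9.19 and 9.12 with the control vector (difference -0.54, adjusted p = 0.0334 by limma). The average of its 2 probe sets differed by -0.23 (adjusted p = 0.134 by limma). Whether they share signal with close paralogs of the aldo-keto reductase family was not tested. Of 8 genes of prostaglandin transport and breakdown, 1 fell and 7 did not pass (median -0.09). PTGR3, a prostaglandin reductase, read 7.95 and 7.99 with the NeuroD2 vector, against 8.48 and 8.45 with the control vector (difference -0.49, adjusted p = 0.0265). Averaged over its 6 probe sets the difference was -0.27 (adjusted p = 0.081 by limma).

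None of the 10 other prostanoid receptor and partner genes passed limma's test, and 1 had an unadjusted p below 0.05. PTGFRN, which encodes a partner protein of the prostaglandin F receptor, differed most, by -0.21 (adjusted p = 0.176). In the lipoxygenase and leukotriene branch, 1 of 17 measured genes fell and 16 did not pass. The list median was 0.08, and -0.27 over the 3 members left without dim genes. MGST2, a glutathione transferase that can form leukotriene C4, read 8.18 and 8.27 with the NeuroD2 vector and 8.75 and 8.71 with the control vector (difference -0.51, adjusted p = 0.0277). Of 8 genes of the P450 branch, 1 fell and 7 did not pass (median -0.07). CYP2U1, which hydroxylates arachidonic acid, read 5.70 on both NeuroD2 arrays and 6.26 and 6.50 on the control arrays (difference -0.68, adjusted p = 0.0276 by limma, and -0.39 averaged over its 6 probe sets).

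Downstream of EP2 and EP4, 0 of 19 signalling genes passed limma's test and 4 had an unadjusted p below 0.05. The adenylyl cyclase gene ADCY7 differed most, with 7.81 and 7.78 on the NeuroD2 arrays, against 7.06 and 7.45 on the control arrays (difference 0.53, adjusted p = 0.0879). Of 10 genes listed as induced by cyclic AMP, 0 passed and 2 had an unadjusted p below 0.05 by limma. The 10 include CRTC2 (difference 0.16), which is also counted among the 19 signalling genes. Whether cyclic AMP induces the listed genes in these cells was not tested. In this list 9 differences were positive, with a median of 0.14 (0.03 when probe sets were averaged). Over all genes 9077 of 18132 differences were positive, and without dim genes only 1 of the 10 listed genes was left. The phosphodiesterase gene PDE4B had the list's largest difference and its only negative one, -0.36 (adjusted p = 0.0611 by limma).

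**Figure D4:**
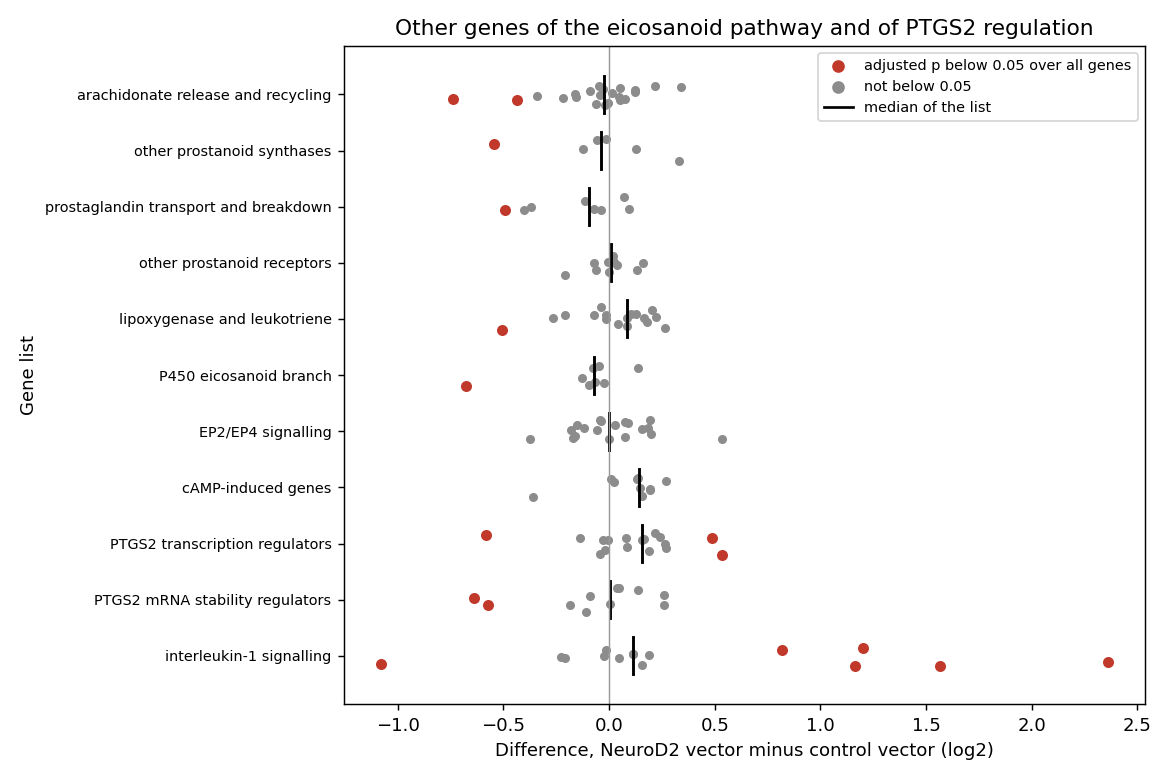
Differences between the NeuroD2 vector and the control vector (log2, horizontal axis) of the measured genes of 11 lists (rows), in red where the adjusted p over all genes was below 0.05, with the list median as a black bar. Interleukin-1 signalling holds 5 of the 7 listed genes that rose, and lists may share a gene. The lists were chosen with earlier results of these data known.

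Genes listed as regulators of PTGS2 differed in both directions. Among 17 listed transcription regulators, 2 rose, 1 fell and 14 did not pass (median 0.16). The only fall among these was TCF4, which is not the factor usually meant by that name, as described below. The C/EBP factor genes CEBPB and CEBPD rose, CEBPB with 11.68 and 11.58 on the NeuroD2 arrays, against 11.03 and 11.16 on the control arrays (difference 0.53, adjusted p = 0.0333). CEBPD read 9.68 and 9.75 with the NeuroD2 vector and 9.20 and 9.26 with the control vector (difference 0.49, adjusted p = 0.0308). The C/EBP letters printed above lie in the PTGS2 window, and whether either factor binds there was not measured. NFKB1 (0.26), RELA (0.24) and JUN (0.22) did not pass, with adjusted p-values of 0.120, 0.139 and 0.154 by limma. TCF4, which fell by 0.58 (adjusted p = 0.0293), encodes an E protein of the basic helix-loop-helix family, whereas the beta-catenin partner long called by the same name is TCF7L2 and was not listed.

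Among 11 regulators of PTGS2 mRNA stability and translation, 2 fell and 9 did not pass (median 0.00). CELF2, an RNA-binding protein known to hold back translation of PTGS2 mRNA, read 8.62 and 8.66 with the NeuroD2 vector and 9.17 and 9.26 with the control vector (difference -0.57, adjusted p = 0.0215). PDCD4, a repressor of translation, read 8.01 and 7.98 with the NeuroD2 vector, against 8.61 and 8.66 with the control vector (difference -0.64, adjusted p = 0.0146). ELAVL1, which stabilises AU-rich mRNAs, differed by 0.04, and ZFP36, which promotes their decay, by 0.26 (adjusted p = 0.153 by limma).

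Interleukin-1 signalling, a standard inducer of PTGS2, held 5 of the 7 listed genes that rose, among 328 that rose on the whole array. Of its 15 measured genes, 5 rose, 1 fell and 9 did not pass (median 0.11), against 1.81% of all genes that rose and 2.96% that fell. The list was chosen with earlier results of these data known, so its count is a description. Whether interleukin-1 acted on PTGS2 in these cells was not tested. IL1B read 13.72 and 13.67 on the NeuroD2 arrays, against 11.39 and 11.27 on the control arrays, and IL1A read 9.96 and 9.95 on the NeuroD2 arrays, against 8.37 and 8.40 on the control arrays. Their differences were 2.36 (adjusted p = 0.00065) and 1.57 (adjusted p = 0.0013) by limma.

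The receptor gene IL1R1 read 9.63 and 9.61 with the NeuroD2 vector and 8.30 and 8.54 with the control vector, a rise of 1.20 (adjusted p = 0.0071) that was 0.61 averaged over its 2 probe sets. The antagonist gene IL1RN rose by 1.17 (adjusted p = 0.0035) and the kinase gene IRAK2 by 0.82 (adjusted p = 0.0266). IRAK1, the related kinase that acts early in the same route, fell to 9.12 and 9.13 with the NeuroD2 vector, against 10.26 and 10.16 with the control vector (difference -1.08, adjusted p = 0.0045 by limma). The receptor genes IL1RAP (-0.23, adjusted p = 0.154) and IL1R2 (0.11, adjusted p = 0.481) did not pass by limma.

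The calls in the 11 lists depended on which arrays were kept. Of the 17 called genes, IL1A, IL1B, IL1RN and IRAK1 were also called without NeuroD2 replicate 1 and without NeuroD2 replicate 2, and IL1R1 without NeuroD2 replicate 2. By limma 0 were called without control replicate 1 and 0 without control replicate 2, where no gene of the array passed although 4428 and 4102 genes had an unadjusted p below 0.05.

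**Figure D5:**
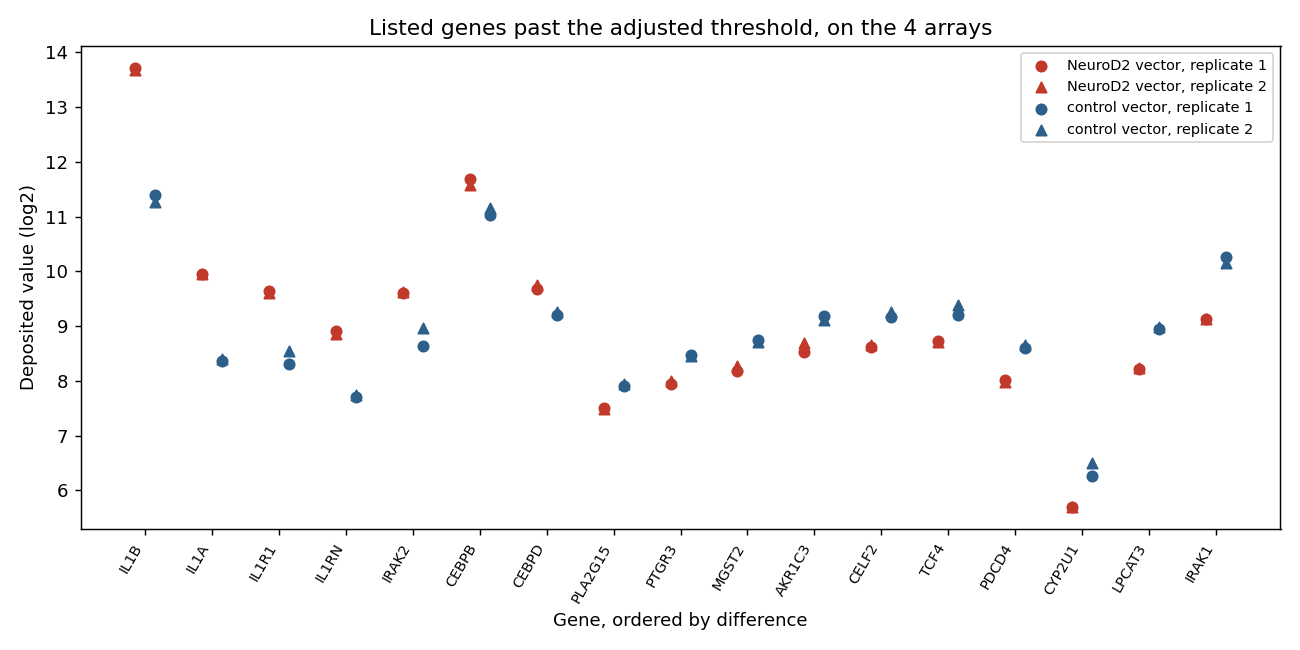
Deposited log2 values (vertical axis) of the 17 listed genes with an adjusted p below 0.05, on the 2 NeuroD2 arrays (red, left) and the 2 control arrays (blue, right), ordered from the largest rise to the largest fall. For every gene shown both NeuroD2 arrays lie on the same side of both control arrays, from IL1B (2.36) to IRAK1 (-1.08). The genes were picked by their call in this same comparison, so this separation is no further evidence. The groups do not overlap in 50.8% of all genes.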

How the data were processed

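RNA of 4 U87MG cultures was measured on Affymetrix PrimeView arrays. The authors' deposited table gives 1 value per probe set and array on a scale read as log2 from its range (2.65 to 14.3) and near-equal array medians (5.98 to 5.99). The sources used here name no normalization or summary software. Only the group labels were used to assign arrays. Of 49395 probe sets, 44988 carried 1 gene symbol in the platform annotation and were used, 1832 carried several (0 of them a prostaglandin gene studied here), 2473 carried none and 102 were controls. A gene was read on its brightest probe set by mean over the 4 arrays, and every probe set was also fitted on its own.

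Groups were compared with limma 3.58.1 in R 4.3.3 (lmFit, eBayes, group as the only term, two-sided, 2 residual and 3.84 prior degrees of freedom), with Benjamini-Hochberg adjustment over all genes or all probe sets and a threshold of 0.05. The fit was tested on simulated data. With 2 arrays a group the smallest exact permutation p is 0.333, so no such test was used. Array number limits precision and no sequencing depth applies.

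The 10 genes, the 11 pathway lists and the marker lists were chosen with earlier results of these data known, and no set test was run. Of all listed genes, 13 had no probe set with that symbol alone and were not analysed here. Genes named were the 10, NEUROD2, up to 6 called genes per list with the largest absolute difference (the single largest where none was called) and the 5 nearest to PTGS2. NFKB1, RELA, JUN, ELAVL1, ZFP36, IL1RAP, IL1R2 and the marker genes were named after their values were seen. Promoter windows are RefSeq's of GRCh38.p14. Alternatives were a replicate block, averaged probe sets, a filter on dim genes, a robust prior, an intensity trend, array medians as centres, quantile normalization and leaving out each array. Background correction and slide could not be varied from the deposited table.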

Additional observations from a re-analysis of the deposited data

How the results depend on the processing

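Of the 10 genes, 2 were called as reported, against 1 with the replicate block, quantile normalization, centring on array medians or a robust prior (PTGS2 in each), and 0 to 1 when an array was left out. For probe sets the 3 calls became 5 with an intensity trend and 6 without dim probe sets, and 0 to 3 when an array was left out. Over all genes the 864 calls became 335 with the replicate block, 2056 with the trend and 2081 without dim genes, and 0 to 66 when an array was left out. The 17 list calls became 9 with the replicate block, 27 with the trend and 26 without dim genes, and 0 to 5 when an array was left out. Small differences changed sign: HPGD was 0.01 as reported, -0.0057 with quantile normalization and between -0.065 and 0.089 when an array was left out, PTGIS was -0.04, 0.00076 with median centring and between -0.20 and 0.13 when an array was left out, PTGS1 was 0.10 and between -0.016 and 0.22 when an array was left out, and PTGER4 was 0.14, and -0.047 with probe sets averaged. The cause was not tested, except that a filter leaves fewer genes to adjust over and a left-out array leaves 1 in its group, which is then assumed to vary like the other group. Without an array of the control group, 4 of the 10 genes had an unadjusted p below 0.05. Replicate numbers are shared between the groups, but same-numbered arrays deviated together only weakly (r = 0.082 across genes, which are not independent), so the numbers were not taken as pairs. Under the block, PTGS2 stayed called and PTGER2 did not (adjusted p = 0.0694, and 0.011 to 0.277 across the 11 alternatives). Of the 9 listed genes still called under the block, 5 were higher and 4 lower, and PLA2G15, AKR1C3, PTGR3, MGST2, CYP2U1, CEBPB, CEBPD and TCF4 were no longer called (adjusted p 0.0503 to 0.0709). Of 120 list medians recomputed, 118 moved by less than 0.1. The other 2 were the lipoxygenase and leukotriene list, at 0.08 and at -0.27 without dim genes (3 members left), and the cyclic AMP list, at 0.14 and at 0.03 with probe sets averaged. The filter left the P450 list without a member. PTGS1, PTGIS and HPGD were dim, and whether the deposited values can show small changes at that level was not tested.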
